A study of Mus musculus with 13 samples.

Results

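Transcripts of 10 genes for matricellular and closely related matrix proteins were followed in renal glomeruli, the capillary tufts of the kidney that filter blood, from mice of 3 genotypes. The genes are tenascin C (Tnc), fibronectin (Fn1), periostin (Postn), osteopontin (Spp1), thrombospondins 1 and 2 (Thbs1 and Thbs2), SPARC (Sparc), SPARC-like 1 (Sparcl1), fibrillin 1 (Fbn1) and nidogen 1 (Nid1). They were selected by gene symbol and are 10 of the 46958 genes in the deposited count table. All 10 passed the filter on low counts, as did 16738 genes in all.

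The series concerns light chain deposition disease (LCDD), a disorder of clonal plasma or B cells whose antibody light chains build up in kidney basement membranes, and its title asks about the toxicity of such chains for glomeruli. The first genotype, labelled kFRA (LCDD) and called LCDD here, has 4 libraries. The second, labelled DH-LMP2A, has 4 libraries, and wild type (WT) has 5. All mice were 6 months old and on a mixed C57/BL6x129/SVxBALB/c background. Each library pooled the glomeruli of 3 mice, except WT replicates 3, 4 and 5, which came from 1 mouse each. The labels do not describe the DH-LMP2A alleles, and do not say whether LCDD mice carry them too, so what LCDD and DH-LMP2A share is not known here. Sample titles hold a code of unstated meaning that takes 4 values, numbered here in ascending order. LCDD and DH-LMP2A replicates 1 to 4 carry codes 1 to 4, WT replicate 1 carries code 1, WT replicate 2 carries code 3, and WT replicates 3 to 5 carry code 4.

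Matricellular proteins are secreted into the extracellular matrix, where they bind structural fibres, growth factors and cell surface receptors rather than bearing load themselves. Tenascin C, periostin, osteopontin and the thrombospondins signal mainly through integrins, CD36 and CD47, while SPARC binds collagen. Fibronectin and fibrillin 1 form fibrils, and nidogen 1 links laminin to type IV collagen in basement membranes. In the glomerulus, mesangial cells lie between the capillaries and secrete much of the matrix that expands in glomerular scarring, and tenascin C is a known component of that matrix.

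The sequences before the start sites of Tnc, Nid1 and Postn are shown because these 3 genes carry the differences between LCDD and DH-LMP2A described below. They are RefSeq promoter sequences on GRCm38.p6, in which 7 of the 10 genes had an entry and Fn1, Thbs1 and Sparcl1 had none. Each is written 5′ to 3′ on the strand of the gene, ends at or before the start site, and leaves out bases inside the annotated transcript. The Tnc sequence is chr4:64047016-64047265 on the minus strand, that of Nid1 is chr13:13437352-13437550 on the plus strand, and that of Postn, before the second of its 2 RefSeq start sites, is chr3:54360857-54361106 on the plus strand. Capitals mark exact matches on either strand to the TATA box, the GC box, the TEAD site and the AP-1 site. The E-box form CANNTG, held by 66.2% of all mouse promoters of 250 bases, was searched too and is not marked. The TATA box was written TATAAA. The GC box was written GGGCGG. The site of TEAD factors was written GGAATG. The site of AP-1 was written TGANTCA, where N is any base.
Tnc: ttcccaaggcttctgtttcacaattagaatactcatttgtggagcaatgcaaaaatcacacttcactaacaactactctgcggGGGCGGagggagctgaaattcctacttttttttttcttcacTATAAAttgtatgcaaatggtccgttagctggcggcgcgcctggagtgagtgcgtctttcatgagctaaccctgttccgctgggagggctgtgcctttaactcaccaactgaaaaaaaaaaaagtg
Nid1: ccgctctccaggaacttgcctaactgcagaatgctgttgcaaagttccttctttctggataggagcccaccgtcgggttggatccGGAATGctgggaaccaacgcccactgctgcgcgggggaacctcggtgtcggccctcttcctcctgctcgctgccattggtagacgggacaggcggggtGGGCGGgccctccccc
Postn: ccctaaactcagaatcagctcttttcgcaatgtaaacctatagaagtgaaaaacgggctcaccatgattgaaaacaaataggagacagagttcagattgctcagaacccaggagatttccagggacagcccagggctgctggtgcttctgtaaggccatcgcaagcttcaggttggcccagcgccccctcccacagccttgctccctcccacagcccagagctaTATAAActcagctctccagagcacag
In the Tnc sequence the GC box begins 167 bases and the TATA box 126 bases before the start site. In the Nid1 sequence the TEAD letters begin 165 bases and the GC box 67 bases before it. The Postn sequence holds a TATA box 26 bases before the start site. Of all 32851 mouse promoters of 250 bases, 12.4% hold the TATA letters, 32.7% the GC box letters, 12.6% the TEAD letters and 6.75% the AP-1 letters, so none of these matches is rare. The AP-1 letters are not in the 3 printed sequences.

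Total counts per library ran from 16687509 to 30587890. Counts were scaled to a common library size and are given as CPM, and 3 counts, the smallest level taken as detectable, equal 0.0981 to 0.180 CPM. This floor covers counting error only. Every member had at least 31 counts in every library. The tissue label fitted the summed CPM of 8 podocyte markers (7143 to 33606) and 8 glomerular endothelial markers (7788 to 18927), with 12 tubule markers at 318 to 3452. LCDD replicate 1 stood apart with the lowest podocyte sum (7143 CPM) and the highest mesangial sum (6427 CPM). Reads of Ddx3y, a gene of the Y chromosome, were at 208 to 2296 counts in the LCDD and DH-LMP2A libraries but at 0, 197, 1, 0 and 0 in WT replicates 1 to 5, so the share of male mice, which the labels do not give, differed between WT and the other genotypes. Ddx3y also differed within codes, at 2214, 296, 1861 and 208 counts in LCDD and 1336, 2296, 435 and 1185 in DH-LMP2A. The sexes were thus not balanced between those 2 genotypes within a code. Nothing in the labels shows that the libraries are separate beyond the pooling, so p-values measure the spread between these libraries. In bulk RNA, fewer cells of a type and less RNA per cell cannot be told apart.

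Levels between genes were compared as CPM per kilobase of exon, averaged over the 13 libraries. Sparc was the highest at 498 (range 370 to 679), above 99.7% of the genes tested. Nid1 followed at 71.8 (42.1 to 146), Spp1 at 65.0 (13.5 to 216) and Sparcl1 at 35.5 (7.73 to 61.1). Thbs1 lay at 18.4 (9.98 to 26.5), Thbs2 at 9.61 (7.86 to 11.7), Tnc at 9.33 (2.59 to 42.4) and Fbn1 at 6.63 (4.65 to 11.2). Postn at 2.71 (0.220 to 10.8) and Fn1 at 1.36 (0.805 to 2.79) were the lowest. The range of Sparc lay wholly above that of Nid1, while every other pair of neighbours in this order overlapped. The spread between libraries followed another order, since the highest library exceeded the lowest 49.2-fold for Postn, 16.3-fold for Tnc, 16.0-fold for Spp1 and 7.91-fold for Sparcl1, but only 1.83-fold for Sparc and 1.49-fold for Thbs2.

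**Figure D1:**
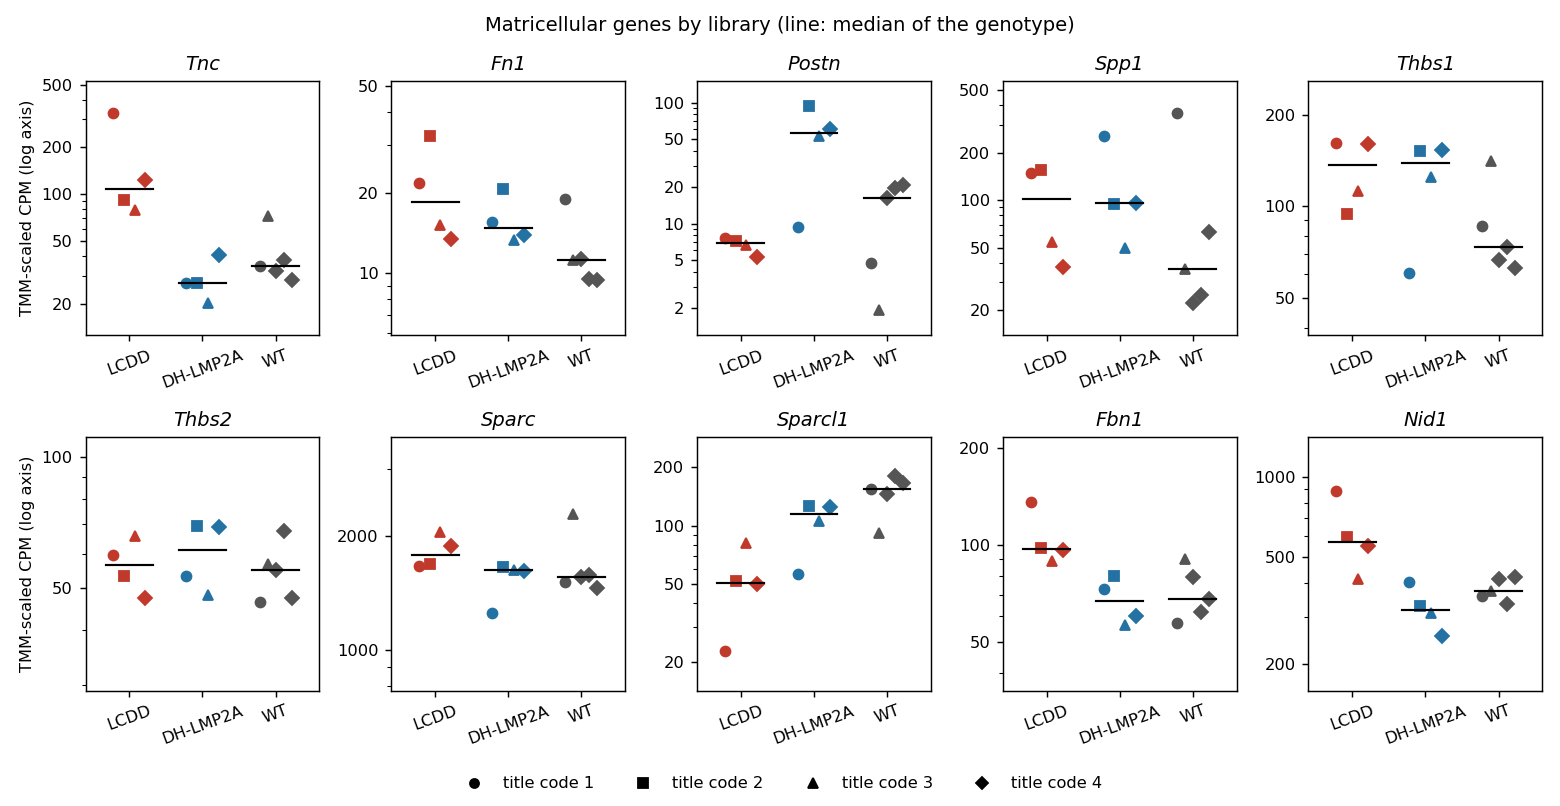
Each panel shows 1 gene, with TMM-scaled CPM on a log axis for each library of the 3 genotypes (marker shape gives the title code, the line the median of the genotype). Tnc and Nid1 are highest in LCDD, Postn is lower in all 4 LCDD libraries than in any DH-LMP2A library, Sparcl1 is highest in WT, and Thbs2 and Sparc vary little.

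Of the 10 genes, 2 were called between LCDD and DH-LMP2A, both higher in LCDD (Tnc and Nid1), where a call is a Benjamini-Hochberg adjusted p under 0.05 in the edgeR quasi-likelihood test. In that comparison 2.00% of all genes tested were called, 1.30% higher and 0.693% lower. An unadjusted edgeR p under 0.05 was found for 5 of the 10, against 13.1% of all genes. The median log2 fold change of the 10 genes was 0.18, against -0.01 for all genes tested. Libraries of the 2 genotypes did not overlap for 5 of the 10, namely Tnc, Nid1, Fbn1 and Sparc (4 higher in LCDD, against 4.74% of all genes) and Postn (1 lower, against 2.89%), where 7.62% of all genes had no overlap. Same-code libraries of LCDD and DH-LMP2A deviated together, though some libraries of different codes did so as closely. With the title code as a block 3 of the 10 were called, against 6.10% of all genes. These were Tnc and Nid1, higher in LCDD (3.24% of all genes), and Postn, lower (2.86%).

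Between LCDD and WT, 2 of the 10 were called, Tnc (1 higher in LCDD, against 1.30% of all genes) and Sparcl1 (1 lower, against 0.544%), where 1.84% of all genes were called. An unadjusted p under 0.05 was found for 5 of the 10, against 11.96% of all genes. The median log2 fold change was 0.33, against 0.01 for all genes, and the same 2 genes were those without overlap (2.97% of all genes higher, 1.63% lower and 4.59% in all). Between DH-LMP2A and WT, 0 of the 10 were called by edgeR, against 0.627% of all genes, and 0 had groups without overlap (4.97% of all genes). In that comparison 1 of the 10, Postn, had an unadjusted edgeR p under 0.05, where 12.5% of all genes did, and DESeq2 called 1, also Postn. The median was 0.03, against 0.00 for all genes. The 3 comparisons share libraries and are not independent of each other. In each of them DESeq2 called more of all genes than edgeR did without the block, with the counts given in the last section.

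**Figure D2:**
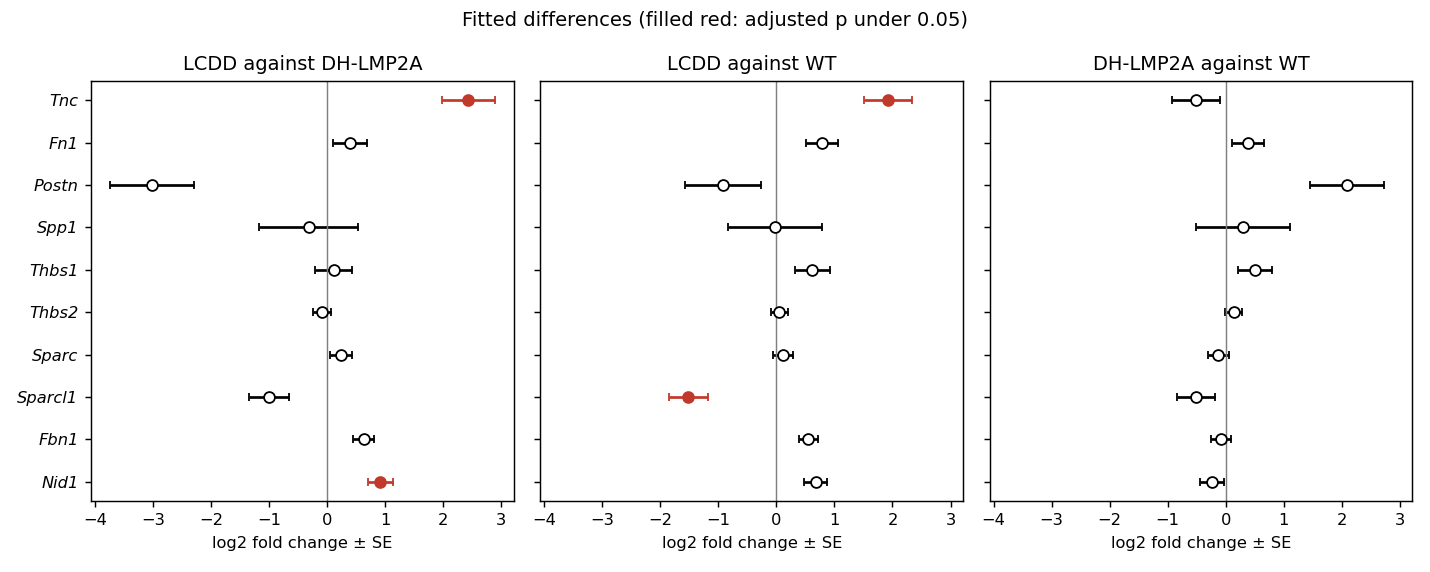
Log2 fold change (points) with its standard error (bars) for the 10 genes in each of the 3 comparisons, with filled red points at an edgeR adjusted p under 0.05. Tnc is filled in both comparisons of LCDD, Nid1 only against DH-LMP2A and Sparcl1 only against WT, and no gene is filled for DH-LMP2A against WT.

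Tnc (chr4:63959785-64047015, minus strand) encodes tenascin C, a large glycoprotein of several arms that is sparse in most healthy adult tissue and induced in remodelling matrix. It was the member with the largest rise in LCDD. Its level was 329, 91.4, 78.9 and 123 CPM in LCDD replicates 1 to 4. It was 27.2, 27.0, 20.2 and 40.8 CPM in DH-LMP2A replicates 1 to 4 and 34.5, 72.0, 32.4, 37.8 and 28.2 CPM in WT replicates 1 to 5. Every LCDD library was above every other library, LCDD replicate 1 lay far above the rest, and the lowest LCDD library (78.9 CPM) was close to WT replicate 2 (72.0 CPM), which shares its title code. Mean levels were 156 ± 117 CPM in LCDD (SD, n = 4), 28.8 ± 8.66 in DH-LMP2A (SD, n = 4) and 41.0 ± 17.7 in WT (SD, n = 5).

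Against DH-LMP2A the log2 fold change of Tnc was 2.43 ± 0.45 (SE, edgeR adjusted p = 0.0164). With the title code as a block it was 2.27 ± 0.46 (SE, edgeR adjusted p = 0.0214). Within title codes 1 to 4 the LCDD library exceeded its DH-LMP2A counterpart by 3.59, 1.75, 1.96 and 1.59 on the log2 CPM scale, so the difference was in the same direction in 4 of 4 codes. Without LCDD replicate 1 the log2 fold change was 1.77 (edgeR adjusted p = 0.0209), and the call ended without DH-LMP2A replicate 2 (2.42, adjusted p = 0.0698) or replicate 3 (2.30, adjusted p = 0.0668). The mesangial marker sum was also higher in LCDD, at 3811 to 6427 CPM, against 2693 to 3443 in DH-LMP2A and 3014 to 3825 in WT. Within LCDD this sum and Tnc ranked the libraries alike. In WT and in DH-LMP2A they did not. WT replicate 5 had the highest WT sum (3825 CPM) and the lowest WT Tnc (28.2 CPM). DH-LMP2A replicate 4 had the lowest sum of its group (2693 CPM) and its highest Tnc (40.8 CPM). The log2 fold change was 1.59 ± 0.85 (SE, edgeR adjusted p = 0.9997) with the mean level of those markers as a covariate. With the 6 smooth muscle and renin cell markers in their place it was 2.27 ± 0.73 (SE, edgeR adjusted p = 0.461).

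Against WT the log2 fold change of Tnc was 1.93 ± 0.41 (SE, edgeR adjusted p = 0.0299). Within codes 1, 3 and 4, which hold both genotypes, LCDD was higher in 3 of 3, by 0.13 to 3.25. The call was lost in 6 of the 13 fits that each left out 1 library, with values of 1.26 without LCDD replicate 1 (edgeR adjusted p = 0.0763), 2.03 without LCDD replicate 4 (0.0517), 1.87 without WT replicate 1 (0.0501), 1.82 without WT replicate 3 (0.0931), 1.90 without WT replicate 4 (0.0890) and 1.82 without WT replicate 5 (0.0900). It was lost too with only the genotypes compared in the fit (1.90, adjusted p = 0.0817), without the 3 single-mouse WT libraries (1.51, adjusted p = 0.553), with the 4 Y-linked genes as a covariate (0.78, adjusted p = 0.647), with the mesangial markers as a covariate (1.28, adjusted p = 0.739) and with the smooth muscle and renin cell markers (1.85, adjusted p = 0.110). DH-LMP2A and WT overlapped for Tnc, at -0.51 ± 0.41 on the log2 scale (SE, edgeR adjusted p = 0.650).

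**Figure D3:**
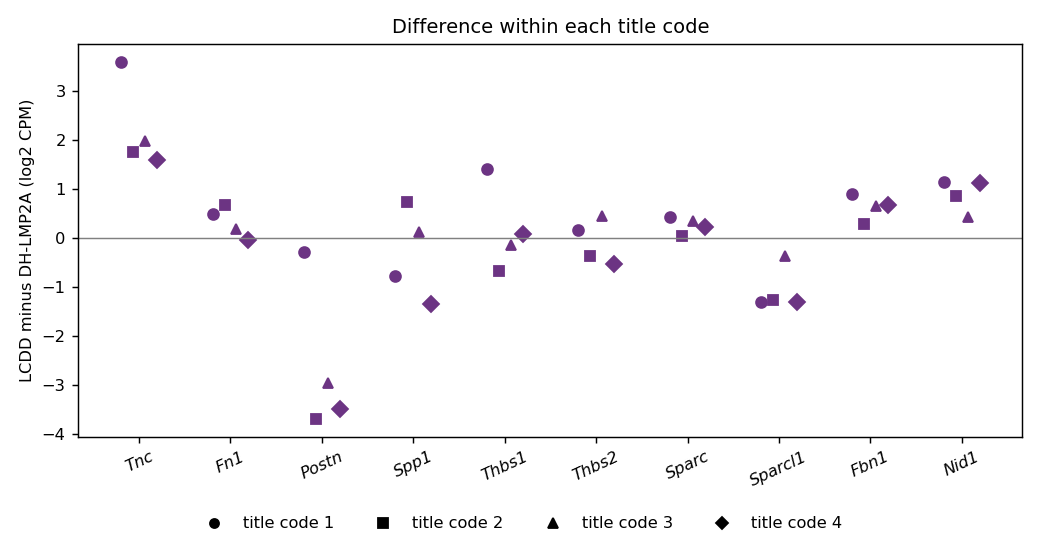
Difference in log2 CPM between the LCDD and the DH-LMP2A library of the same title code, for each of the 10 genes (marker shape gives the code, the line at 0 marks no difference). All 4 differences lie above 0 for Tnc, Nid1, Fbn1 and Sparc, and all 4 lie below 0 for Postn and Sparcl1.

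Nid1 (chr13:13437602-13512275, plus strand) encodes nidogen 1, the basement membrane linker. It was at 883, 595, 415 and 552 CPM in LCDD, at 403, 329, 309 and 255 CPM in DH-LMP2A, and at 360, 374, 415, 336 and 422 CPM in WT, each in replicate order. All 4 LCDD libraries were above all 4 DH-LMP2A libraries, with LCDD replicate 1 the highest, while LCDD replicate 3 lay within the range of WT. The log2 fold change against DH-LMP2A was 0.92 ± 0.21 (SE, edgeR adjusted p = 0.0448), and the within-code differences of 1.13, 0.85, 0.42 and 1.12 were all positive. Against WT it was 0.68 ± 0.20 (SE, edgeR adjusted p = 0.123). DESeq2 called Nid1 higher in LCDD than in WT, as did 1 of the 13 edgeR fits that left out 1 library (adjusted p = 0.0432). DH-LMP2A against WT gave -0.24 ± 0.20 (SE, edgeR adjusted p = 0.662).

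With the title code as a block Nid1 was called against DH-LMP2A (0.89 ± 0.18, SE, edgeR adjusted p = 0.0195), and DESeq2 called it too. The edgeR call without the block lay close to the threshold. It held in 2 of the 13 fits that left out 1 library (without LCDD replicate 3 or DH-LMP2A replicate 1), and the other 11 gave 0.68 to 0.96 with adjusted p from 0.0513 to 0.145. It was lost with RLE size factors (adjusted p = 0.0502), library totals only (0.0520), no filter on low counts (0.0639), a mean of at least 5 CPM (0.0568), only the genotypes compared (0.144), no single-mouse WT libraries (0.128) and the Y-linked genes as a covariate (0.0531), at 0.87 to 0.92. With the mesangial markers as a covariate the log2 fold change of Nid1 was 0.04 ± 0.27 (SE, edgeR adjusted p = 0.9997), compared with 0.92 without it, and with the 6 smooth muscle and renin cell markers as a covariate it was 0.35 ± 0.22 (adjusted p = 0.896). The 4 LCDD libraries had higher mesangial sums than all 4 DH-LMP2A libraries, so marker level and genotype cannot be told apart in this comparison. Of the 8 mesangial markers, all of which were detected, 7 had a positive log2 fold change against DH-LMP2A (median 0.57) and 6 had an unadjusted edgeR p under 0.05, where 13.1% of all genes did. Pdgfrb was nearly level, at 672 CPM in LCDD and 610 in DH-LMP2A (0.14 ± 0.20, SE, edgeR adjusted p = 0.831). Ndnf, under 1 CPM on average, was at -0.56 (adjusted p = 0.761). Itga8 had the highest mean of the 8 in LCDD (1998 CPM) and weighed most in the summed CPM. Ptn was called (1.09 ± 0.23, SE, edgeR adjusted p = 0.0334), where 1.30% of all genes were called higher. The title code as a block called Ptn, Itga8 and Mcam (edgeR adjusted p = 0.00834, 0.0216 and 0.0135), where 3.24% of all genes were called higher. DESeq2, which called more of all genes than edgeR without the block, called 4.

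**Figure D4:**
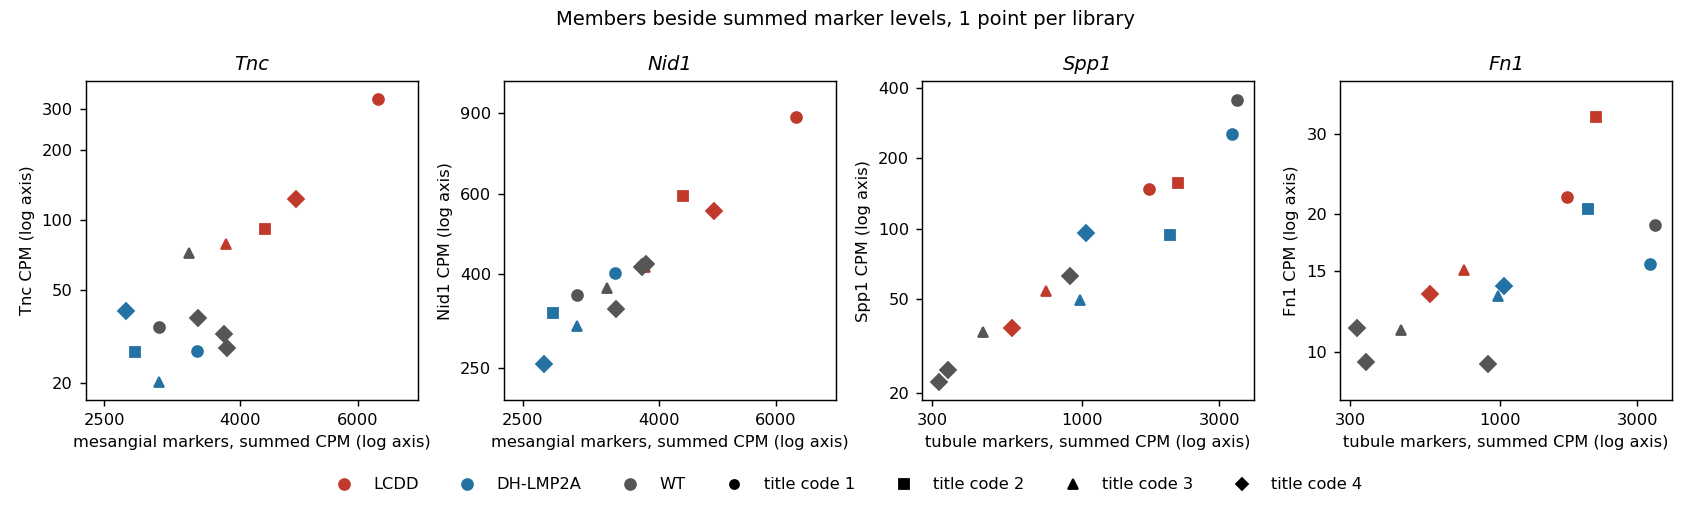
Summed CPM of the mesangial markers (x axis) against CPM of Tnc and Nid1 (y axis), and summed CPM of the tubule markers (x axis) against CPM of Spp1 and Fn1 (y axis), with 1 point per library, colour for genotype and marker shape for title code. LCDD replicate 1 has the highest mesangial sum (6427 CPM), Tnc (329 CPM) and Nid1 (883 CPM), and WT replicate 1 has the highest tubule sum (3452 CPM) and Spp1 (356 CPM).

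Fbn1 (chr2:125300594-125507993, minus strand) encodes fibrillin 1, the backbone of microfibrils that hold latent TGF-beta in the matrix. Its levels were 135, 97.5, 88.8 and 96.0 CPM in LCDD and 73.1, 80.1, 56.4 and 60.2 CPM in DH-LMP2A, with 57.3, 90.6, 79.4, 61.8 and 67.9 CPM in WT. LCDD and DH-LMP2A libraries did not overlap, and LCDD replicate 3 (88.8 CPM) lay just under WT replicate 2 (90.6 CPM). Neither difference passed the test, at 0.63 ± 0.18 against DH-LMP2A (SE, edgeR adjusted p = 0.0945) and 0.55 ± 0.17 against WT (adjusted p = 0.140), and DH-LMP2A against WT gave -0.08 ± 0.17 (adjusted p = 0.880). DESeq2 called the first (0.61, adjusted p = 0.0334), and so did edgeR with the Y-linked genes as a covariate (0.69, adjusted p = 0.0360).

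Fn1 (chr1:71585520-71653200, minus strand) encodes fibronectin, whose fibrils are bound by tenascin C. It was at 21.8, 32.6, 15.1 and 13.4 CPM in LCDD, at 15.6, 20.6, 13.2 and 13.9 CPM in DH-LMP2A, and at 18.9, 11.2, 11.3, 9.53 and 9.41 CPM in WT. The 3 genotypes overlapped, and the highest library of each was replicate 1 or 2. The log2 fold change was 0.39 ± 0.29 against DH-LMP2A (SE, edgeR adjusted p = 0.647) and 0.78 ± 0.28 against WT (adjusted p = 0.226), with 0.39 ± 0.28 for DH-LMP2A against WT (adjusted p = 0.596).

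Postn (chr3:54361109-54391037, plus strand) encodes periostin, a matricellular protein that binds integrins and takes part in collagen assembly. It was the member with the largest difference between LCDD and DH-LMP2A, in the opposite direction to Tnc. Its levels were 7.60, 7.19, 6.68 and 5.28 CPM in LCDD, but 9.32, 94.2, 52.6 and 60.2 CPM in DH-LMP2A. In WT they were 4.72 and 1.92 CPM in replicates 1 and 2 and 16.4, 19.6 and 20.8 CPM in replicates 3 to 5. LCDD libraries were close to each other and all below those of DH-LMP2A, where replicate 1 lay near the LCDD range and the other 3 far above it. The WT libraries also fell apart, with the pools of codes 1 and 3 below LCDD and the single mice of code 4 above it, and pooling and code cannot be told apart there.

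The log2 fold change of Postn in LCDD against DH-LMP2A was -3.01 ± 0.72 (SE, edgeR adjusted p = 0.0520), which did not pass the threshold. With the title code as a block Postn was called (-2.65, edgeR adjusted p = 0.0412), in a fit where the WT libraries shared the same code terms. The within-code differences were -0.29, -3.70, -2.96 and -3.49, negative in 4 of 4 codes, with code 1 near 0. Postn was also called by DESeq2 (-3.03, adjusted p = 0.000236), without DH-LMP2A replicate 1 (-3.37, edgeR adjusted p = 0.0163), without WT replicate 1 (adjusted p = 0.0410) and without WT replicate 2 (adjusted p = 0.0237), and under 10 alternatives in all. The 6 smooth muscle and renin cell markers, all detected, were also lower in LCDD than in DH-LMP2A, at sums of 384 to 694 against 768 to 1119 CPM. Within DH-LMP2A the sums and Postn ranked the libraries alike. In WT, at 461 to 667 CPM, they did not, since replicate 2 had the highest sum (667 CPM) and the lowest Postn (1.92 CPM). With the mean level of these markers as a covariate the value for Postn was -2.51 ± 1.27 (SE, edgeR adjusted p = 0.839). None of these markers was called in LCDD against DH-LMP2A without the block. With the block Myh11 and Ren1 were called lower (edgeR adjusted p = 0.0376 and 0.0296), where 2.86% of all genes were, and DESeq2 called Ren1 lower. Ren1, the renin gene, averaged 103 CPM in LCDD and 377 CPM in DH-LMP2A.

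Against WT, the change of Postn in LCDD was -0.92 ± 0.66 on the log2 scale (SE, edgeR adjusted p = 0.691), which was 0.93 (adjusted p = 0.932) without the single-mouse WT libraries. In DH-LMP2A it was at 2.09 ± 0.64 against WT (SE, edgeR adjusted p = 0.189), higher in 3 of the 3 codes that hold both, by 0.97 to 4.72. DESeq2 called this difference (2.09, adjusted p = 0.0294). The summed fibroblast markers, which can mark cells that make periostin, overlapped between genotypes (276 to 963 CPM in LCDD, 352 to 659 in DH-LMP2A and 305 to 770 in WT), with 5 of the 8 tested and Lum, Dpt and Mfap5 at or under 3 counts in every library. Most of that sum was Col1a2, and the markers did not move together. In LCDD against DH-LMP2A, Col1a1 was at -1.57 (0.990 against 2.97 CPM, edgeR adjusted p = 0.139) and Pdgfra at 0.58 (185 against 124 CPM, adjusted p = 0.0546, and 0.0302 with the block), and DESeq2 called both.

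Spp1 (chr5:104435118-104441050, plus strand) encodes osteopontin, an integrin and CD44 ligand that kidney tubules also make. It was at 148, 156, 54.2 and 37.6 CPM in LCDD, at 254, 94.4, 49.8 and 96.1 CPM in DH-LMP2A, and at 356, 36.4, 22.3, 24.9 and 62.9 CPM in WT. The genotypes overlapped throughout, and replicate 1 was the highest library of both DH-LMP2A and WT. The tubule marker sum ran alongside, at 1706, 2149, 748 and 568 CPM in LCDD, 3319, 2025, 980 and 1027 in DH-LMP2A, and 3452, 452, 318, 341 and 905 in WT. All 12 tubule markers were detected and none was called in any comparison.

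The log2 fold change of Spp1 was -0.32 ± 0.86 in LCDD against DH-LMP2A (SE, edgeR adjusted p = 0.914). With the tubule markers as a covariate it was 0.04 ± 0.33 (adjusted p = 0.962), so its SE shrank from 0.86 to 0.33. Against WT it was -0.02 ± 0.81 (SE, edgeR adjusted p = 0.997), which became 1.44 (adjusted p = 0.218) without WT replicate 1. DH-LMP2A against WT gave 0.30 ± 0.81 (SE, edgeR adjusted p = 0.914). The sign of each of these differences changed with the libraries used.

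Sparc (chr11:55394500-55420080, minus strand) encodes SPARC, a collagen-binding glycoprotein that endothelial and mesangial cells secrete. Its levels were 1660, 1688, 2047 and 1876 CPM in LCDD, and 1247, 1659, 1627 and 1615 CPM in DH-LMP2A. WT stood at 1511, 2287, 1560, 1579.5 and 1455 CPM. LCDD and DH-LMP2A did not overlap, but their nearest libraries differed by little, at 1660 against 1659 CPM. The log2 fold change was 0.24 ± 0.19 against DH-LMP2A (SE, edgeR adjusted p = 0.654) and 0.11 ± 0.18 against WT (adjusted p = 0.908), with -0.13 ± 0.18 for DH-LMP2A against WT (adjusted p = 0.804). None of these differences was called.

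Sparcl1 (chr5:104079111-104113733, minus strand) encodes the related protein SPARC-like 1, also called hevin. It moved the other way, with 22.7, 51.8, 81.3 and 50.3 CPM in LCDD, 56.4, 126, 106 and 125 CPM in DH-LMP2A, and 154, 91.8, 145, 180 and 166 CPM in WT. Every LCDD library was below every WT library, LCDD replicate 1 was the lowest of all 13, and DH-LMP2A lay between them and overlapped both. Sparcl1 fell by 1.52 ± 0.34 on the log2 scale against WT (SE, edgeR adjusted p = 0.0365), with within-code differences of -2.76 to -0.18 in 3 of 3 codes.

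Against DH-LMP2A its log2 fold change was -1.01 ± 0.34 (SE, edgeR adjusted p = 0.189), negative in 4 of 4 codes, and DH-LMP2A against WT gave -0.51 ± 0.33 (adjusted p = 0.548). The call against WT held in 5 of the 13 fits that left out 1 library. It was lost without LCDD replicate 1, 2 or 4, DH-LMP2A replicate 3 or 4, or WT replicate 3, 4 or 5, where values were -1.56 to -1.27 and adjusted p 0.0503 to 0.104, with -1.27 for LCDD replicate 1. It was lost too at a mean of at least 5 CPM (adjusted p = 0.0578), with only the genotypes compared (0.0659), without the single-mouse WT libraries (-1.30, adjusted p = 0.424), with the Y-linked genes as a covariate (-0.97, adjusted p = 0.551) and with the mesangial markers as a covariate (-1.06, adjusted p = 0.538).

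Thbs1 (chr2:118111876-118127133, plus strand) encodes thrombospondin 1, which binds CD36 and CD47 and can activate latent TGF-beta. It was at 161, 94.4, 113 and 161 CPM in LCDD, at 60.6, 151, 125 and 153 CPM in DH-LMP2A, and at 86.4, 141, 66.9, 73.4 and 62.7 CPM in WT. All genotypes overlapped, with DH-LMP2A replicate 1 well below the other 3 of its group and WT replicate 2 well above the other 4. The log2 fold change was 0.11 ± 0.31 against DH-LMP2A (SE, edgeR adjusted p = 0.921) and 0.62 ± 0.30 against WT (adjusted p = 0.443), with 0.51 ± 0.30 for DH-LMP2A against WT (adjusted p = 0.515).

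Thbs2 (chr17:14665500-14694262, minus strand) encodes thrombospondin 2, a related protein that inhibits angiogenesis. It was the most even of the 10, at 47.5 to 65.8 CPM in LCDD, 48.3 to 69.5 CPM in DH-LMP2A and 46.6 to 67.7 CPM in WT. Its log2 fold changes were -0.09 ± 0.16 in LCDD against DH-LMP2A (SE, edgeR adjusted p = 0.868), 0.05 ± 0.15 in LCDD against WT (adjusted p = 0.961) and 0.14 ± 0.15 in DH-LMP2A against WT (adjusted p = 0.739).

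Relatives and partners of the 10 genes were counted in lists by family and role. Of 4 tenascin genes 2 were tested, and Tnxb, which encodes the collagen-associated tenascin X, did not follow Tnc. Tnxb was at 20.04 ± 6.15 CPM in LCDD (SD, n = 4), 42.5 ± 12.4 in DH-LMP2A (SD, n = 4) and 16.4 ± 3.49 in WT (SD, n = 5). It was higher in DH-LMP2A than in WT by 1.38 ± 0.25 (SE, edgeR adjusted p = 0.0295), and in LCDD against DH-LMP2A it was at -1.09 ± 0.27 (adjusted p = 0.0587, and 0.00829 with the title code as a block). The call against WT held in 7 of the 13 fits that left out 1 library (edgeR adjusted p up to 0.125) and was lost with the mesangial markers as a covariate (1.35, adjusted p = 0.0931). Tnxb and Postn thus both had their highest mean in DH-LMP2A.

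Among basement membrane linkers, 9 of 9 were tested and 2 were called in LCDD against DH-LMP2A, both higher (1.30% of all genes), Nid1 and its paralogue Nid2. Nid2 rose by 0.85 ± 0.17 against DH-LMP2A (SE, edgeR adjusted p = 0.0219) and by 0.75 ± 0.16 against WT (adjusted p = 0.0280), from 84.8 ± 11.7 CPM (SD, n = 4) and 91.2 ± 8.30 CPM (SD, n = 5) to 153 ± 38.7 CPM (SD, n = 4). Without LCDD replicate 1 these were 0.70 (edgeR adjusted p = 0.0531) and 0.59 (adjusted p = 0.0879), and with the mesangial markers as a covariate 0.13 and 0.22 (adjusted p = 0.9997 and 0.854). The median of this list was 0.14 against DH-LMP2A and 0.32 against WT. Of 18 microfibril and elastic fibre genes 15 were tested, and the median was 0.10 against DH-LMP2A and 0.22 against WT. Ltbp4, which binds latent TGF-beta, was higher in LCDD than in DH-LMP2A by 0.91 ± 0.20 (SE, edgeR adjusted p = 0.0366), at 451 ± 106 against 240 ± 48.6 CPM (SD, n = 4 each), and at 0.97 without LCDD replicate 1 (adjusted p = 0.0556). Fbln5, an organiser of elastic fibres, was lower in LCDD than in WT, at -0.90 ± 0.18 on the log2 scale (SE, edgeR adjusted p = 0.0198), at 30.8 ± 8.71 CPM (SD, n = 4) against 57.6 ± 9.39 CPM (SD, n = 5).

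All 20 receptor genes were tested. Itga9, an integrin subunit that binds tenascin C and osteopontin, was higher in LCDD than in DH-LMP2A by 1.22 ± 0.25 (SE, edgeR adjusted p = 0.0294), and did not pass without LCDD replicate 1 (adjusted p = 0.0789). It was at 192 ± 56.2 CPM in LCDD (SD, n = 4), 82.3 ± 28.6 in DH-LMP2A (SD, n = 4) and 162 ± 30.8 in WT (SD, n = 5), so its lowest mean was in DH-LMP2A and LCDD stood near WT. With the mesangial markers as a covariate its difference was 0.77 (edgeR adjusted p = 0.9997). The title code as a block called 4 receptors higher in LCDD, Itga9, Itga8, Itgb1 and Itga4 (edgeR adjusted p = 0.00723, 0.0216, 0.0272 and 0.0477), where 3.24% of all genes were called higher. DESeq2 called the first 3 of these. Cd47, the thrombospondin receptor, was lower in DH-LMP2A than in WT, at -0.74 ± 0.15 on the log2 scale (SE, edgeR adjusted p = 0.0420), at 77.6 ± 12.1 CPM (SD, n = 4) against 130 ± 17.7 CPM (SD, n = 5), a call that held in 4 of the 13 fits that left out 1 library (adjusted p up to 0.138). In LCDD against WT, 0 receptors were called by edgeR without the block (1.84% of all genes). Of the 20, 5 had an unadjusted edgeR p under 0.05 (11.96% of all genes). With the block edgeR called Cd47 lower (-0.57, adjusted p = 0.0128), in a fit that called more of all genes. DESeq2, which called more of all genes than edgeR without the block, called 2, Ddr2 (higher) and Cd47 (lower).

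Of the 6 genes of the CCN family, another matricellular group, 4 were tested, and Wisp1 was higher in LCDD than in DH-LMP2A by 1.56 ± 0.37 (SE, edgeR adjusted p = 0.0496), at 8.55 ± 5.15 against 2.90 ± 0.442 CPM (SD, n = 4 each), with 4.21 ± 1.503 CPM in WT (SD, n = 5). The call held in 3 of the 13 fits that left out 1 library, with 1.05 without LCDD replicate 1 (edgeR adjusted p = 0.118), and with the mesangial markers as a covariate the difference was 0.47 (adjusted p = 0.9997). Ctgf averaged 3266 CPM in LCDD, 1967 in DH-LMP2A and 1789 in WT. DESeq2 called it higher in LCDD in both comparisons, edgeR in neither (adjusted p = 0.167 and 0.0778). Cyr61 was called higher against WT by DESeq2 alone (edgeR adjusted p = 0.0683). An unadjusted edgeR p under 0.05 was found for 2 of the 4 against DH-LMP2A and 3 against WT (13.1% and 11.96% of all genes). Of the 8 SPARC family genes 4 were tested, and Sparcl1 against WT was the single edgeR call without the block. Fstl1, a secreted follistatin-like protein gene, was at 0.80 in LCDD against DH-LMP2A (edgeR adjusted p = 0.0814, and 0.0335 with the block), and DESeq2 called it. Without the block, no edgeR call in any of the 3 comparisons fell among the 5 thrombospondins, the 3 tested osteopontin and periostin relatives, the 13 crosslinking enzymes or the 17 tested inducers and mechanosensitive regulators, which include the TGF-beta and PDGF genes. With the block, which called 6.10% of all genes, LCDD against DH-LMP2A gave edgeR calls for Postn (lower) and for Pdgfa, Pdgfd and Ets1 (higher, adjusted p = 0.0266, 0.0235 and 0.0391). At an unadjusted edgeR p under 0.05, LCDD against DH-LMP2A gave 0, 1, 2 and 5 of these, LCDD against WT gave 1, 0, 1 and 2, and DH-LMP2A against WT gave 0, 1, 1 and 2, where 13.1%, 11.96% and 12.5% of all genes passed. DESeq2 called Postn, Pdgfa and Tgfb3 in the first comparison, Bmp1 and Tgfb3 in the second, and Postn and Loxl1 in the third.

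Among the genes whose log2 CPM ran most like that of Tnc over the 13 libraries were Ctsk (Pearson r = 0.97), Tnnt2 (0.95), Ddx58 (0.95) and Lmnb1 (0.94), of 13012 genes averaging 1 CPM or more. LCDD replicate 1 was the highest library for all 4, at 15.2, 12.5, 150 and 13.8 CPM, and without it r over the other 12 was 0.94, 0.94, 0.88 and 0.88. All values share the same libraries and genotypes, so these correlations are a description. Tnnt2, the cardiac troponin T gene, was at 5.76 to 12.5 CPM in LCDD, 0.815 to 2.10 in DH-LMP2A and 1.08 to 2.72 in WT, with log2 fold changes of 2.51 ± 0.40 against DH-LMP2A (SE, edgeR adjusted p = 0.00695) and 2.23 ± 0.36 against WT (adjusted p = 0.00714). Ctsk, the gene of the collagen-degrading protease cathepsin K, was called against DH-LMP2A (1.48 ± 0.34, edgeR adjusted p = 0.0441) and not against WT (1.23 ± 0.31, adjusted p = 0.0716). Tnnt2 passed edgeR in all 13 fits that left out 1 library, and Ctsk against DH-LMP2A passed in 2 of the 13, with 0.995 without LCDD replicate 1 (adjusted p = 0.0900). With the mesangial markers as a covariate Ctsk was at 0.59 and Tnnt2 at 2.45 against DH-LMP2A (edgeR adjusted p = 0.9997 and 0.593). Ddx58, which encodes the RNA sensor RIG-I, and Lmnb1, which encodes lamin B1, passed in neither comparison (edgeR adjusted p from 0.0762 to 0.210). The 5 proliferation markers also separated LCDD, at sums of 59.4 to 116 CPM against 16.5 to 18.6 in DH-LMP2A and 13.4 to 22.3 in WT, and their part in the Tnc difference was not tested.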

How the data were processed

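RNA of bead-purified glomeruli was sequenced in 13 libraries, grouped by the genotype label. The authors deposited raw counts per gene, made with featureCounts, per the file headers. STAR 2.4.0a, Subread 1.5.0-p3, DESeq2 and the builds mm10 and GRCm38 are named in the submitters' processing notes. The strand setting, gene annotation and treatment of multi-mapping reads are not given in the sources used here. Coordinates are those of the deposited table, and genes overlapping a member held at most 186 counts in all libraries together.

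Tests used edgeR 4.0.16 (R 4.3.3). The filter filterByExpr (minimum count 10) kept 16738 genes, dropped 30220 and left at least 99.93% of each library's counts. Counts were scaled with TMM factors, and 1 quasi-likelihood fit over all 13 libraries gave the 3 comparisons, with p-values adjusted by Benjamini-Hochberg over the genes tested. SE is the log2 fold change over the square root of F, and a prior count of 2 entered log2 CPM. The steps were tested on simulated data. No pair of the 22 same-genotype pairs agreed within sampling noise (chi-square per degree of freedom 12.6 to 234, over genes with at least 20 counts per pair).

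Deviations from the genotype means of same-code libraries correlated at 0.153 to 0.593 in the 4 LCDD and DH-LMP2A pairs, all above 0.1, so the code was taken to pair them. The 12 pairs of different codes averaged -0.139, against 0.421 for the same code, but ran from -0.599 to 0.524. LCDD replicate 2 was at 0.524 with DH-LMP2A replicate 1 and at 0.153 with its same-code partner. The code thus did not always pick out the closest library. Against WT, 4 of 5 same-code pairs were positive for each genotype (means over the 5 of 0.214 for LCDD and 0.298 for DH-LMP2A), but the pairs with WT replicate 5 were at -0.165 and -0.159, so by the same rule the code was not taken to pair those.

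The members and lists were chosen with earlier results of these data known. Genes named are all 10 members, called list genes (at most 4 per list, by smallest p) and the 5 genes most correlated with Tnc, leaving out predicted genes (1 of these 5 is not reported here). Alternatives were DESeq2 1.42.0, other scaling, filters, subsets, the block, each library left out, and tubule and Y-linked (4 genes) covariates. The mesangial and the smooth muscle and renin marker covariates were added after seeing the data. RefSeq protein sequences were not used here.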

Additional observations from a re-analysis of the deposited data

Results flagged for a closer look

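In 4 of 33 groups of values, a single library lay far from the rest of its genotype, where chance gives about 1 in 20 (1.65 of 33). Fn1 stood at a log2 CPM of 4.25 in WT replicate 1, with the other 4 at 3.25 to 3.51. That library also had the highest Spp1 and tubule marker values. For Sparc, DH-LMP2A replicate 1 had a log2 CPM of 10.3 (1247 CPM), with the other 3 at 10.7, and WT replicate 2 had 11.2 (2287 CPM), with the other 4 at 10.5 to 10.6. WT replicate 2 also held the highest Tnc of WT and was the only WT library with over 1 count of Ddx3y. LCDD replicate 3 had 18604929 counts in total, with the other 3 at 25276687 to 26544422.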

How the results depend on the processing

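Of 750 single-gene results under alternatives, 655 kept their direction and side of the threshold, 49 lost a call, 15 gained one and 31 changed sign. Genes called between LCDD and DH-LMP2A numbered 334, and were 812 with DESeq2, 153 at a mean of at least 5 CPM, 213 with only the genotypes compared, 1021 with the replicate block, 1185, 33 and 35 with the tubule, mesangial, and smooth muscle and renin covariates, and 113 to 484 when leaving out 1 library. Members called numbered 2, and were 4 with DESeq2, 3 with the block, 1 with RLE size factors, with library totals only and at 5 CPM, 0 with the mesangial and with the smooth muscle covariate, and 0 to 3 leaving out 1 library. For LCDD against WT, 308 genes became 726 with DESeq2, 116 at 5 CPM, 185 with only the genotypes compared, 536 with the block, 54 without the single-mouse libraries, 31 with the Y-linked and 45 with the mesangial covariate, and 159 to 441 leaving out 1 library. Members called by DESeq2 were Tnc and Nid1 (higher) and Sparcl1 (lower). With edgeR they went from 2 to 1 at 5 CPM, with the block (Tnc 1.82, edgeR adjusted p = 0.0588) and with the smooth muscle covariate, to 0 with only the genotypes compared, without the single-mouse libraries, and with the Y-linked or mesangial covariate, and to 0 to 3 leaving out 1 library. For DH-LMP2A against WT, 105 genes became 458 with DESeq2, 54 at 5 CPM, 562 with the block, 69 without the single-mouse libraries, 911, 60, 56 and 33 with the tubule, Y-linked, mesangial and smooth muscle covariates, and 29 to 407 leaving out 1 library. Members called were 1 with DESeq2 and 0 leaving out 1 library. Where the code pairs LCDD with DH-LMP2A, the block changed no other call on a member. Signs changed only for differences that were not called. Between LCDD and DH-LMP2A these were Spp1 (0.31 without DH-LMP2A replicate 1, with a range of -0.67 to 0.31 leaving out 1 library, and 0.043 with the tubule covariate), Thbs1 (-0.11 without that library) and Thbs2 (0.14 mesangial, 0.25 smooth muscle). Between LCDD and WT they were Postn (0.93 without the single mice, 0.93 Y-linked), Spp1 (0.091 block, 0.18 and 0.25 without LCDD replicates 3 and 4, 1.44 without WT replicate 1, a range of -0.40 to 1.44 leaving out 1 library, 1.69 Y-linked, 0.23 mesangial), Thbs1 (-0.073 Y-linked), Thbs2 (-0.031 without LCDD replicate 3, -0.0020 without WT replicate 1, -0.19 Y-linked) and Sparc (-0.10 without the single mice, -0.33 Y-linked). Between DH-LMP2A and WT they were Spp1 (-0.33 without DH-LMP2A replicate 1, a range of -0.33 to 1.76 leaving out 1 library, -0.70 without the single mice, -0.12 tubule), Thbs1 (-0.29 Y-linked), Thbs2 (-0.13 Y-linked, -0.10 smooth muscle), Sparcl1 (0.095 Y-linked), Fbn1 (0.0066 without WT replicate 2, a range of -0.17 to 0.0066, 0.035 mesangial, 0.0017 smooth muscle) and Nid1 (0.0010 mesangial, 0.14 smooth muscle). The causes were not tested. WT replicates 1, 3, 4 and 5 had almost no Y-linked reads, and LCDD and DH-LMP2A differed in summed mesangial and smooth muscle markers, so those covariates overlap with genotype. Each member had at least 31 counts in every library.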
